A study of Citrus reticulata and Citrus x clementina and Citrus x paradisi with 16 samples.

Results

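The loci described here are the annotated genes that were silent in the ovules of 1 of 2 mandarins and expressed in those of the other. They numbered 50 of the 15918 loci with a reference gene, out of 20373 loci in all. Of these, 10 were silent in CM and expressed in PK, and 40 were silent in PK and expressed in CM. They were selected on the measured counts: a locus was taken as silent where each of the 4 libraries of a mandarin held under 3 counts, and as expressed where each of the 4 libraries of the other held at least 1 CPM (counts-per-million of the locus totals). The PK/CM difference of these loci is thus what chose them, and it is given as a description with no test. Another 4 loci were left out by name, and 2 of them met the same values.

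The study profiled mRNA in ovules of 2 pairs of citrus cultivars, each pair setting a polyembryonic cultivar beside a monoembryonic one. The mandarins were ‘Huagan No.2’ Ponkan (PK, polyembryonic, Citrus reticulata) and ‘Nour’ clementine (CM, monoembryonic, Citrus clementina), and the other pair was ‘Cocktail’ grapefruit (GF, polyembryonic) and ‘Huanong red’ pummelo (PU, monoembryonic). Ovules were taken at nucellar embryo initiation (NEI) and just before it (pre-NEI), which were 7 and 3 days after flowering in PK and CM and 3 and 0 days in GF and PU, with 2 libraries in each of the 8 groups. The cultivars were pollinated by hand at anthesis with trifoliate orange, and the ovaries of each were harvested from several trees. Whether the flowers of GF and PU taken at 0 days had been pollinated is not stated. The 2 replicates of each group were the harvests of successive years. Each cultivar is a single genotype, so polyembryony and any other difference between 2 cultivars cannot be told apart. In CM and PU no nucellar embryo starts, and the stage names mark the matching days. No marker list of ovule tissues was used, and embryo sac, nucellus and integument were not separated.

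In nucellar embryony, cells of the nucellus, the maternal tissue around the embryo sac, form embryos without fertilization, so a polyembryonic seed holds clones of the mother beside the sexual embryo. Related citrus cultivars descend from repeated crosses among a few ancestral species and carry different stretches of those genomes. A gene can be present, expressed and readable in 1 cultivar and not in its relative, and an RNA count near 0 does not separate a gene that is not transcribed from one that is missing or one whose reads could not be placed on the reference. These cases cannot be told apart here. All PK and CM reads were aligned to the genome of clementine, the species of CM, with at most 2 mismatches.

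The locus totals were 17.854 to 24.913 megacounts in the 8 PK and CM libraries, where 3 counts equal 0.12 to 0.168 CPM. In GF and PU the totals were 11.838 to 34.195 megacounts. At least 1 CPM in all 4 libraries was reached by 13493 annotated loci in PK and 13036 in CM, so more annotated loci passed this limit in PK. Among the 4455 loci with no reference gene, the same limits gave 42 loci silent in CM and 93 silent in PK. The part of the reference genome in the larger number silent in PK was not tested.

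The limit of under 3 counts in each silent library fixed near-silence in advance, and the counts here describe the loci within that limit. Of the 10 loci silent in CM, 5 had 0 counts in all 4 CM libraries, and of the 40 silent in PK, 18 had 0 counts in all 4 PK libraries. The highest sum over the 4 silent libraries was 4 counts in CM, for XLOC_000730, and 6 counts in PK, for XLOC_005716. The authors' FPKM is a length- and depth-scaled value made from pooled replicates and listed for each transcript. The value given here is that of the transcript with the largest total, and not of the whole locus. It was listed at exactly 0 at both stages for 7 of the 10 loci in CM and 36 of the 40 in PK. Its highest value in the silent mandarin was 0.0607 in CM and 0.102 in PK. An FPKM of 0 does not by itself mark silence. XLOC_019692 was also listed at 0 in CM at both stages, where its libraries held 37 to 119 counts. XLOC_003885 was listed at 0 in CM at NEI, with 218 and 444 counts there. Every other locus was above 0 at both stages in the mandarin that expressed it. Only 1 locus in each direction had another isoform with 3 or more counts in a silent library: XLOC_012139, with up to 9 in CM, and XLOC_005686, with up to 3 in PK. The count limits set the number of loci. Requiring 0 counts left 5 and 18 loci, and allowing under 10 counts gave 26 and 69, silent in CM and in PK in that order.

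The loci silent in PK reached higher levels where they were expressed than those silent in CM did. Their mean level in CM ran from 2.18 to 31.9 CPM with a median of 6.48, and per kilobase of transcript the median was 4.85 CPM. The loci silent in CM averaged 1.46 to 4.55 CPM in PK with a median of 3.31, or 2.96 CPM per kilobase. Both lay far below the other annotated loci expressed in the same mandarin, whose medians were 15.1 CPM per kilobase in PK and 13.8 in CM. At the same relative drop, a limit of under 3 counts is easier to meet for a locus of low level. The selection thus favours low levels, and its part in this difference was not tested. At least 5 CPM in all 4 libraries was reached by 0 of the 10 and 15 of the 40. Within the expressing mandarin, the highest of 4 libraries exceeded the lowest by a median of 2.39-fold (range 1.53 to 4.48) for the 10 loci and 2.28-fold (range 1.31 to 5.4) for the 40.

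**Figure D1:**
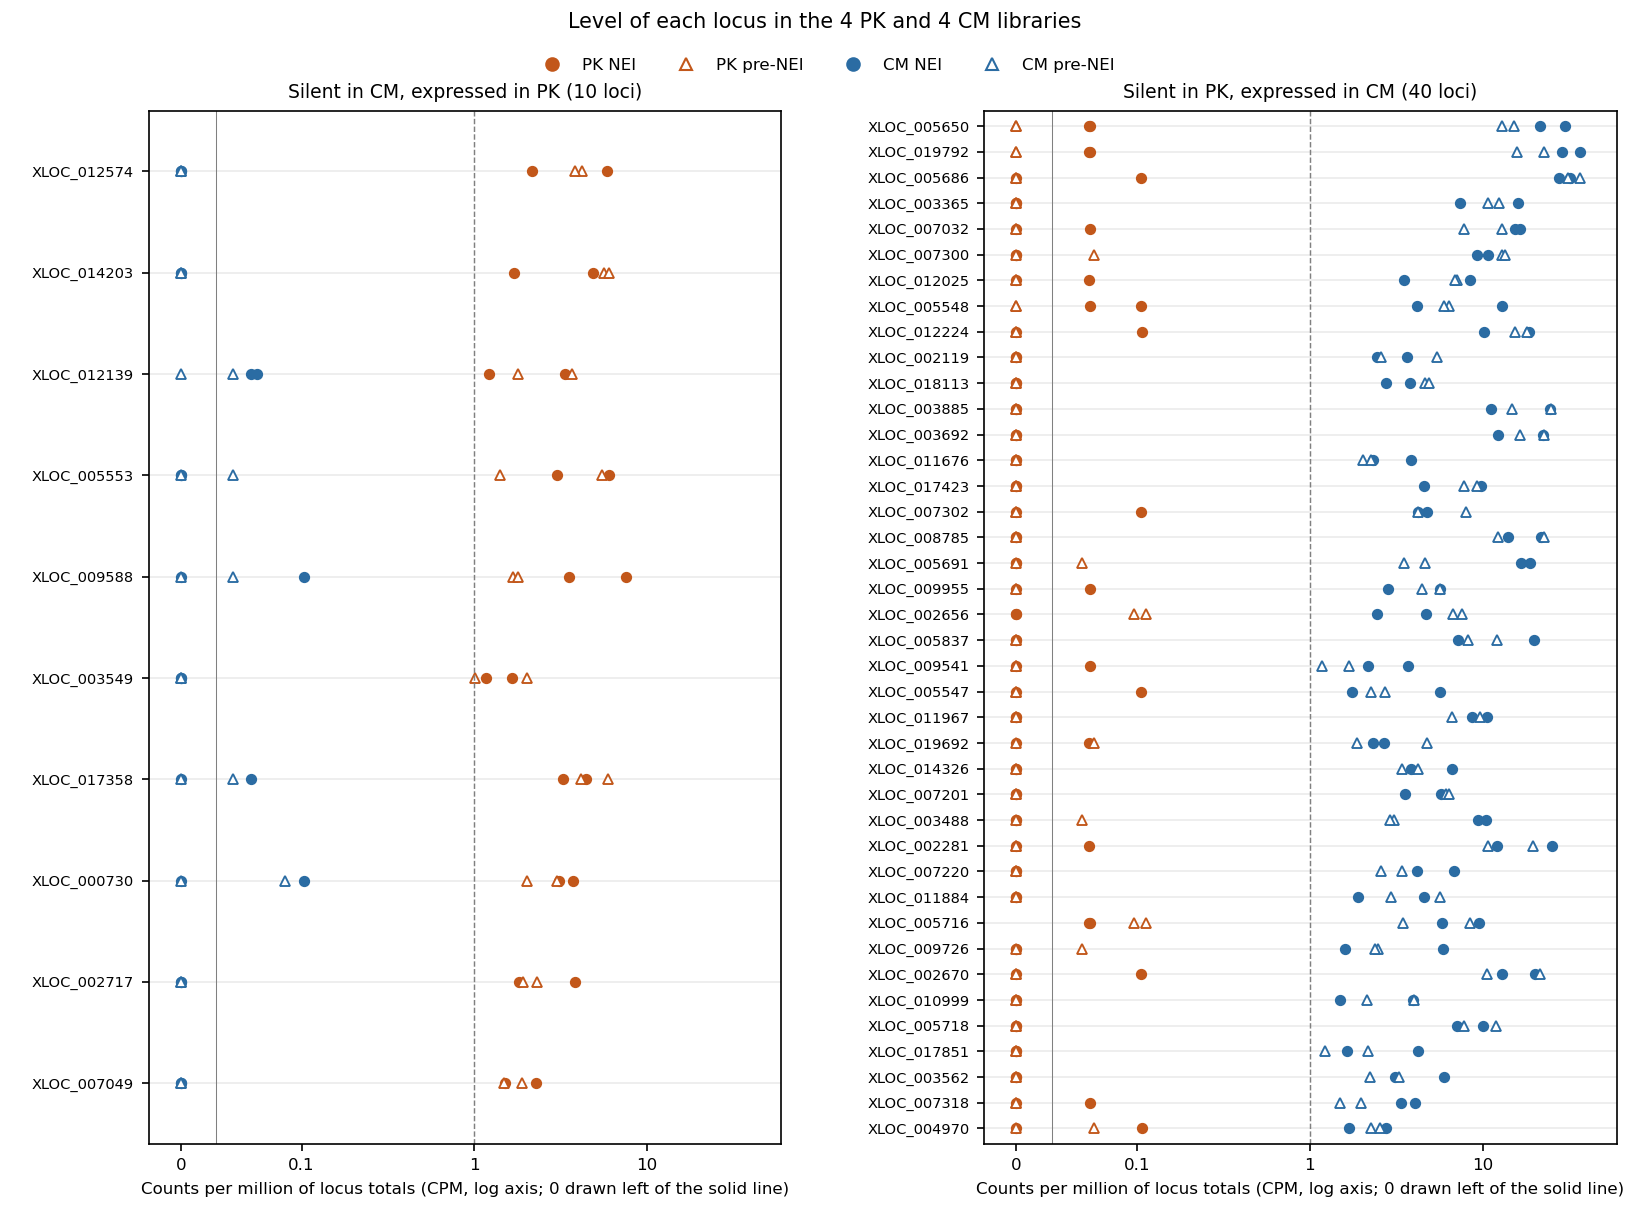
Level of each of the 50 loci in the 4 PK and 4 CM libraries, in CPM on a log axis with 0 drawn left of the solid line; circles are NEI, triangles pre-NEI, and loci are ordered by mean CPM per kilobase in the expressing mandarin. The 10 loci silent in CM (left) lie between 1.01 and 7.53 CPM in PK, and those silent in PK (right) reach 36.7 CPM in CM.

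Of the 10 loci silent in CM, XLOC_014203 had the highest mean CPM in PK. It carries 2 reference genes (Ciclev10013591m.g and Ciclev10013500m.g) on scaffold 6, bases 2790633 to 2803491, minus strand. It had 1.70 and 4.88 CPM at NEI and 5.61 and 5.99 CPM at pre-NEI in PK (replicates 1 and 2 each time), against 0 counts in all 4 CM libraries, so its level was at least 30.7-fold higher in PK. The low value was NEI replicate 1 alone. XLOC_012574 (Ciclev10003691m.g, scaffold 5, bases 39609824 to 39610534) was the strongest of the 10 per kilobase, at 8.72 CPM. Its PK libraries had 2.17 and 5.85 CPM at NEI and 4.22 and 3.81 CPM at pre-NEI, against 0 counts in CM, at least 27.1-fold higher. XLOC_017358, which carries Ciclev10029645m.g and Ciclev10030153m.g on scaffold 8, bases 18440611 to 18444869, had 4.45 and 3.27 CPM at NEI and 4.13 and 5.94 CPM at pre-NEI in PK, against 1 count in each of 2 CM libraries. That made a ratio of 182 (95% exact counting interval 49.9 to 1507), and the 4 PK libraries lay within 1.81-fold of each other.

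XLOC_005553 (Ciclev10021500m.g, scaffold 3, bases 28428435 to 28429662) and XLOC_009588 (Ciclev10033619m.g, scaffold 4, bases 3626631 to 3627971) both belong to the 11 of the 50 loci that have a published annotation. XLOC_005553 had 5.99 and 3.00 CPM at NEI and 5.47 and 1.40 CPM at pre-NEI in PK, higher in replicate 1 at both stages, against a single count in CM (ratio 332, counting interval 59.2 to 13163). XLOC_009588 had 7.53 and 3.54 CPM at NEI and 1.68 and 1.79 CPM at pre-NEI in PK, with both NEI libraries above both pre-NEI libraries, against 3 counts in CM (ratio 98.9, interval 33.5 to 482). That annotation calls XLOC_005553 a predicted protein and XLOC_009588 a hypothetical protein, so neither has a stated role.

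XLOC_000730 (Ciclev10010497m.g, scaffold 1) had 3.08 and 3.75 CPM at NEI and 2.02 and 3.02 CPM at pre-NEI in PK, against 4 counts in CM. XLOC_002717 (Ciclev10015681m.g, scaffold 2) had 3.82 and 1.82 CPM at NEI and 1.92 and 2.30 CPM at pre-NEI in PK, against 0 counts in CM. XLOC_007049 (Ciclev10023905m.g, scaffold 3) had 2.28 and 1.5 CPM at NEI and 1.49 and 1.90 CPM at pre-NEI in PK, against 0 counts in CM. These 3 loci were steady over the PK libraries, within 1.86-fold, 2.09-fold and 1.53-fold in the order given. XLOC_003549 (Ciclev10016797m.g, scaffold 2) sat closest to the expression limit, with 1.17 and 1.66 CPM at NEI and 2.02 and 1.01 CPM at pre-NEI in PK, against 0 counts in CM. XLOC_012139 (Ciclev10003502m.g) had 1.22 and 3.33 CPM at NEI and 1.78 and 3.70 CPM at pre-NEI in PK, against 3 counts in CM. It is the least certain of the 10, since its assembled span on scaffold 5, bases 29874705 to 30059542, covers 17 other loci and another isoform held up to 9 counts in CM.

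The loci silent in PK included a few of clear expression in CM. XLOC_005686 (Ciclev10022243m.g, scaffold 3, bases 36238362 to 36252142, plus strand) had 2 counts in PK NEI replicate 1 and 0 in the other 3 PK libraries, against 27.7 and 32.2 CPM at NEI and 31.3 and 36.4 CPM at pre-NEI in CM. The CM libraries agreed within 1.31-fold, the narrowest span of the 40, and the ratio of CM over PK was 1226 (counting interval 339 to 10127). XLOC_019792 (Ciclev10007212m.g, scaffold 9, bases 20747238 to 20748543) had 1 count in each PK NEI library and 0 at pre-NEI, against 36.7 and 29.0 CPM at NEI and 15.8 and 22.8 CPM at pre-NEI in CM. XLOC_005650 (Ciclev10021711m.g, scaffold 3, bases 33779594 to 33781530) also had 1 count in each PK NEI library, against 30.2 and 21.4 CPM at NEI and 12.9 and 15.2 CPM at pre-NEI in CM. In both loci each CM library at NEI lay above each at pre-NEI. Per kilobase, XLOC_005650 (22.5 CPM) and XLOC_019792 (20.1 CPM) were the highest of the 40, followed by XLOC_005686 (14.9 CPM) and XLOC_003365 (14.1 CPM).

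Several of the best expressed loci had no read at all in PK. XLOC_003885, which carries Ciclev10017713m.g and Ciclev10017456m.g on scaffold 2, had 0 counts in PK, against 11.2 and 24.6 CPM at NEI and 14.8 and 24.8 CPM at pre-NEI in CM, at least 119-fold higher in CM. XLOC_003692 (Ciclev10018066m.g, scaffold 2) had 0 counts in PK, against 12.3 and 22.5 CPM at NEI and 16.5 and 22.8 CPM at pre-NEI in CM. XLOC_008785 (Ciclev10033130m.g, scaffold 4) had 0 counts in PK, against 14.0 and 21.8 CPM at NEI and 12.3 and 22.6 CPM at pre-NEI in CM. In each of these 3 loci replicate 2 was the higher at both stages. Replicate 2 was higher in CM for 32 of the 40 loci at NEI (80.0%, against 75.3% of all tested loci) and for 28 at pre-NEI (70.0%, against 51.8%).

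The remaining loci of the 10 with the highest mean CPM in CM held 1 or 2 counts in PK. XLOC_002281 (Ciclev10017513m.g, scaffold 2) had 1 PK count, against 12.1 and 25.2 CPM at NEI and 10.7 and 19.5 CPM at pre-NEI in CM, and its ratio of 1288 (interval 231 to 50904) was the highest computed. XLOC_002670 (Ciclev10017058m.g, scaffold 2), with a transcript of 5681 bases, had 2 PK counts, against 12.9 and 20.1 CPM at NEI and 10.6 and 21.6 CPM at pre-NEI in CM. XLOC_012224 (Ciclev10003018m.g, scaffold 5) had 2 PK counts, against 10.2 and 18.5 CPM at NEI and 15.5 and 18.1 CPM at pre-NEI in CM. All 3 were again lower in CM replicate 1 than in CM replicate 2. XLOC_007032 (Ciclev10023382m.g, scaffold 3) had 1 PK count, against 15.4 and 16.5 CPM at NEI and 7.76 and 12.9 CPM at pre-NEI in CM.

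Lower on the scale were 3 loci with a published annotation. XLOC_005547 (Ciclev10023350m.g, scaffold 3), a conserved hypothetical protein, had 2 counts in PK NEI replicate 1 and 0 elsewhere in PK, against 1.75 and 5.65 CPM at NEI and 2.74 and 2.25 CPM at pre-NEI in CM. XLOC_007318 (Ciclev10020806m.g, scaffold 3), a predicted protein, had 1 count in PK NEI replicate 2, against 3.39 and 4.04 CPM at NEI and 1.98 and 1.49 CPM at pre-NEI in CM. XLOC_007201 (Ciclev10024254m.g, scaffold 3), also a predicted protein, had 0 counts in PK, against 3.54 and 5.76 CPM at NEI and 6.14 and 6.38 CPM at pre-NEI in CM. The NEI libraries of CM lay above the pre-NEI libraries for XLOC_007318, below them for XLOC_007201 and on both sides of them for XLOC_005547. At the bottom of the 40, XLOC_009541 had 1 count in PK, against 2.16 and 3.71 CPM at NEI and 1.17 and 1.69 CPM at pre-NEI in CM, and XLOC_017851 (Ciclev10028994m.g, scaffold 8) had 0 counts in PK, against 1.64 and 4.21 CPM at NEI and 1.22 and 2.17 CPM at pre-NEI in CM.

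Across the 40 loci, at-least folds of CM over PK ran from 14.6 to 119 for those with no PK count, and ratios ran from 58.4 to 1288 for the rest. Across the 10, the at-least folds of PK over CM ran from 9.88 to 30.7 and the ratios from 60.4 to 332. These ranges follow the level in the expressing mandarin and the depth, and intervals and limits cover counting error only.

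By the edgeR quasi-likelihood test over all 18749 tested loci, PK was called higher for 1.12% at pre-NEI and 0.496% at NEI. PK was called lower for 2.48% and 1.14% of all loci. Calls of the silent loci themselves are left out, since the same contrast chose them. With replicate number as a replicate block the calls over all loci were 2006 at pre-NEI and 625 at NEI, against 675 and 307 without it.

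Several loci lay next to the limits. Just inside, XLOC_009588 and XLOC_000730 reached 2 counts in a CM library, 9 loci reached 2 in a PK library, among them XLOC_002656 (Ciclev10017308m.g), XLOC_002670 and XLOC_004970 (Ciclev10024139m.g), and the lowest expressing values were 1.01 CPM in PK (XLOC_003549) and 1.17 CPM in CM (XLOC_009541, Ciclev10033947m.g). Just outside on the count, 2 loci reached 3 counts in a CM library, of which XLOC_012149 (Ciclev10000315m.g) was one, and XLOC_002146 (Ciclev10017173m.g) and XLOC_005363 (Ciclev10018487m.g) held 4. In PK, 4 loci reached 3 counts, among them XLOC_005424, XLOC_005680 and XLOC_005715 (Ciclev10020887m.g), and XLOC_005715 had at least 44.9 CPM in every CM library. Just outside on expression, XLOC_003720 (Ciclev10017329m.g) fell to 0.84 CPM in a PK library, and XLOC_009613 (Ciclev10030536m.g) to 0.976 CPM in a CM library.

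The silent loci were short compared with other expressed genes. The median transcript had 1066 bases in the 10 loci silent in CM (range 460 to 2201), against 1966 in the other 13483 annotated loci expressed in PK. In the 40 loci silent in PK it had 1283 bases (range 390 to 5681), against 1991 in the other 12996 expressed in CM. Their median GC content was 40.2% and 38.7%, against 41.4% in both sets of other loci. The median number of assembled isoforms was 2 and 3, against 4 in each set of other loci. Length, isoform number and level are not separate measures, and their part in the silence was not tested. Counts grow with transcript length, and a limit of under 3 counts is easier to meet for a short transcript. The part of this limit in the difference of length was not tested.

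On the clementine scaffolds the loci silent in PK were unevenly placed. Of the 40, 15 (37.5%) were on scaffold 3, which held 18.6% of the annotated loci expressed in CM, 8 were on scaffold 2 and 6 on scaffold 5. None was on scaffolds 1 or 7, which held 10.8% and 8.35% of the expressed loci. Within scaffold 3, 10 of the 15 (66.7%) began between 30 and 40 Mb, a stretch with 302 of the 2422 expressed loci of that scaffold (12.5%). The 10 loci silent in CM were spread over scaffolds 1 to 6 and 8, with 2 at most on any of them. Neighbouring loci can share reads and are not independent, and these shares are a description.

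**Figure D2:**
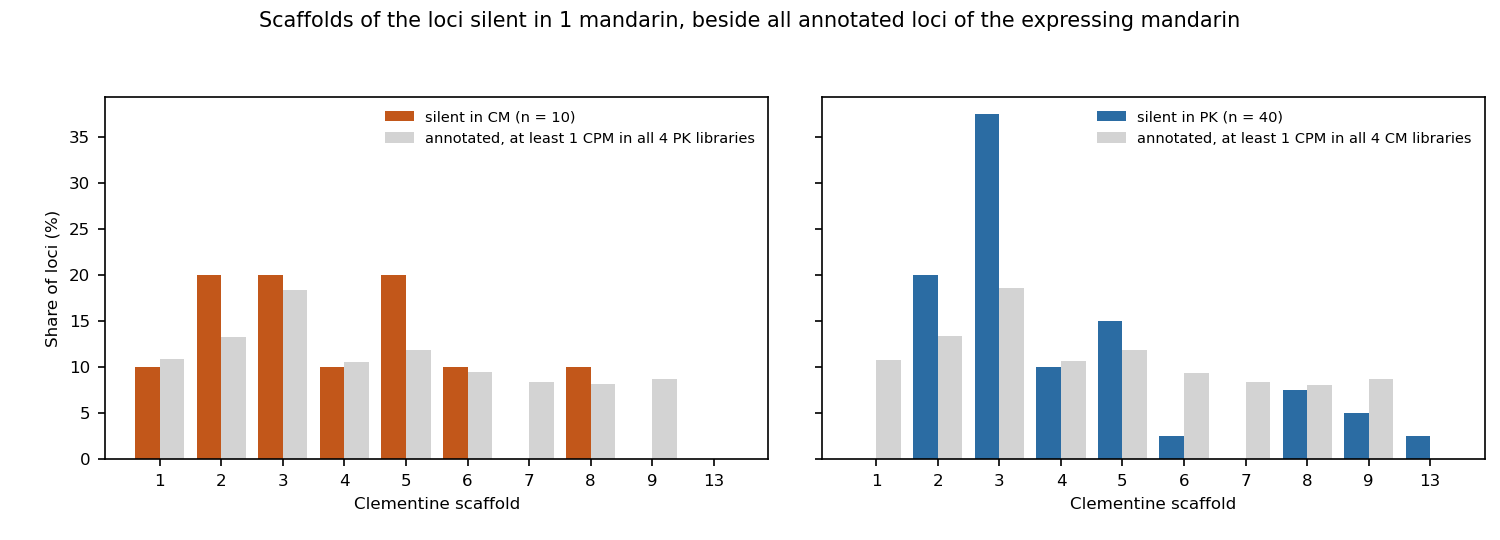
Share of the loci silent in CM (left) and silent in PK (right) on each clementine scaffold, in percent, with grey bars for all annotated loci at 1 CPM or more in the 4 libraries of the expressing mandarin. Scaffold 3 holds 37.5% of the loci silent in PK, beside 18.6% of the annotated loci expressed in CM.

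Some loci silent in PK lay side by side. There were 5 pairs within 100 kb, all on scaffold 3 and all silent in PK, and together they held 10 of the 40 loci. XLOC_005547 and XLOC_005548 (Ciclev10020105m.g) were 126 bases apart on the same strand, XLOC_005650 and XLOC_007220 (Ciclev10024666m.g) were 269 bases apart on opposite strands, and XLOC_005716 (Ciclev10024653m.g) and XLOC_007300 (Ciclev10022666m.g) overlapped by 571 bases on opposite strands. The strand setting of the counts was not given, so the counts of such opposite pairs may be partly the same reads. Per kilobase, XLOC_007300 had a mean level of 8.41 CPM in CM and XLOC_005716 one of 3.13 CPM. By library, XLOC_007300 had 10.7 and 9.30 CPM at NEI and 12.9 and 13.4 CPM at pre-NEI, and XLOC_005716 had 5.85 and 9.52 CPM at NEI and 3.45 and 8.47 CPM at pre-NEI. XLOC_007220 had 4.16 and 6.86 CPM at NEI and 3.40 and 2.57 CPM at pre-NEI in CM, a mean of 3.26 CPM per kilobase beside 22.5 for XLOC_005650. XLOC_005548 had 4.16 and 13.0 CPM at NEI and 6.39 and 5.94 CPM at pre-NEI in CM, a mean of 7.43 CPM per kilobase beside 4.42 for XLOC_005547. XLOC_005718 (Ciclev10020207m.g) and XLOC_007302 (Ciclev10022667m.g) were 15616 bases apart, and XLOC_005686 and XLOC_005691 (Ciclev10019154m.g) 44712 bases apart. No pair of opposite direction lay within 20 kb.

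Some silent loci overlapped loci that were not silent. At least 1 other locus overlapped 3 of the 10 and 11 of the 40. XLOC_002281 lies within XLOC_002280 (Ciclev10014197m.g) on the same strand, which held 975 counts in PK and 1052 in CM. XLOC_005837 (Ciclev10023620m.g) shared 9934 bases with XLOC_005833 (Ciclev10018695m.g), which held 3559 counts in PK and 4910 in CM. These are totals of the whole overlapping locus, and where in it the reads fell is not known. XLOC_007049, silent in CM, lies within XLOC_007047 (Ciclev10023421m.g), which held 1837 counts in PK and 77 in CM. On the other strand XLOC_007049 also lies within XLOC_005437, which held 1293 counts in PK and 3014 in CM. XLOC_017358, silent in CM, lies within XLOC_017357 on the same strand (3617 counts in PK, 2941 in CM). Of those silent in PK, XLOC_007300 and XLOC_005716 lie within XLOC_007298 (2464 and 2455 counts in PK and CM). XLOC_007032 lies within XLOC_005421 (6727 and 3761) and XLOC_007318 within XLOC_005740 (7535 and 14420).

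Among the loci within 20 kb of a silent locus that neither overlapped it nor belonged to the 50, 114 lay near a locus silent in PK. PK was called lower for 15 of them at pre-NEI (13.2%, against 2.48% of all loci) and for 6 at NEI (5.26%, against 1.14%), and higher for 2 (1.75%, against 1.12%) and 1 (0.877%, against 0.496%). Of the 17 called at pre-NEI, 10 had no reference gene. Of the 114, 4 were loci without a reference gene that were silent in PK by the same count and CPM limits, and they made up 4 of the 15 and 3 of the 6 called lower. They were XLOC_002118, at 25 bases from XLOC_002119, XLOC_011883, at 146 bases from XLOC_011884, and XLOC_009682 and XLOC_010418, both near XLOC_008785. Among the other 110, PK was called lower for 11 at pre-NEI (10%) and 3 at NEI (2.73%). XLOC_005715, at 188 bases from XLOC_005716, had a log2 fold change of PK over CM of -11.24 at pre-NEI and -9.49 at NEI. Beside the loci silent in CM, PK was called higher for 1 of 36 neighbours and lower for 1 at each stage (2.78% each). Both had no reference gene and met the same limits. XLOC_007048, at 3494 bases from XLOC_007049, was silent in CM and higher in PK by 8.65 (pre-NEI) and 9.54 (NEI) on the log2 scale, and XLOC_018471, at 19480 bases from XLOC_017358, was silent in PK. Among the other 34 neighbours 0 were called at either stage.

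The neighbour counts rest on few libraries. Leaving out any library leaves 1 in its group, and the calls over all loci then moved as well. Such fits cannot show whether the neighbour counts are less stable than those of all loci. With the replicate block the neighbour counts lower in PK were 24 at pre-NEI and 14 at NEI. The calls over all loci rose too, from 675 to 2006 at pre-NEI and from 307 to 625 at NEI.

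The stage difference within the expressing mandarin was not itself used to choose the loci and could be tested. The rule did require at least 1 CPM at both stages, so a locus that fell below this at 1 stage was left out. The tested loci as a whole needed 1 CPM in only 2 libraries. The part of this limit in the comparison with all loci was not tested. No change passed the test. By the edgeR quasi-likelihood test, 0 of the 10 loci were called between NEI and pre-NEI in PK and 0 of the 40 in CM, where 0.00% of the 18749 tested loci were called in either mandarin, so the test made no call for any gene. An unadjusted p under 0.05 was reached by 0 of the 10 (3.69% of all loci) and 2 of the 40 (5.0%, against 9.47% of all loci). The smallest adjusted p was 0.995 among the 10 and 0.422 among the 40. The edgeR exact test and the fit with the replicate block called 0 in both sets, and DESeq2 called 0 and 1. For the exact test, the block fit and DESeq2 in PK, the share of all loci called is not at hand. Their counts cannot show whether a lack of calls is particular to these loci.

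The locus called by DESeq2 was XLOC_005691 (Ciclev10019154m.g, scaffold 3, bases 36296854 to 36301100), with a DESeq2 adjusted p of 0.0337, in a fit that called 1.41% of all loci higher at NEI. It had 18.9 and 16.7 CPM at NEI in CM, against 3.5 and 4.62 CPM at pre-NEI in CM, and a single count in PK. The groups did not overlap, and the log2 fold change was 2.13 ± 0.61 (SE, 2 libraries per stage; edgeR adjusted p = 0.422, adjusted p = 0.185 with the replicate block). XLOC_003488 (Ciclev10017562m.g, scaffold 2) had 10.4 and 9.35 CPM at NEI in CM, against 3.09 and 2.93 CPM at pre-NEI in CM, a log2 fold change of 1.71 ± 0.65 with an edgeR adjusted p of 0.5. In PK the widest difference was that of XLOC_009588, whose log2 fold change was 1.90 ± 0.93 with an edgeR adjusted p of 0.995. At the other end, XLOC_002656 had 2.46 and 4.70 CPM at NEI in CM, against 7.56 and 6.74 CPM at pre-NEI in CM, a log2 fold change of -1.12 ± 0.51 with an edgeR adjusted p of 0.558.

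As groups, the loci showed no common direction between stages. In PK, both NEI libraries lay above both pre-NEI libraries for 2 of the 10 loci (9.83% of all loci) and below for 1 (27.6% of all loci). In CM they lay above for 9 of the 40 (22.5%, against 17.6% of all loci) and below for 4 (10%, against 12.6%). The median log2 fold change of the 10 was 0.25, beside 0.02 for all loci in PK, and that of the 40 was -0.06, beside -0.01 for all loci in CM. Summed over the 10 loci, the PK libraries had 33.4 and 32.6 CPM at NEI and 30.3 and 30.9 CPM at pre-NEI. Summed over the 40, the CM libraries had 326 and 449 CPM at NEI and 295 and 381 CPM at pre-NEI, and replicate 2 was the higher at both stages. In bulk ovules, fewer cells that express a gene and less of its RNA per cell cannot be told apart.

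**Figure D3:**
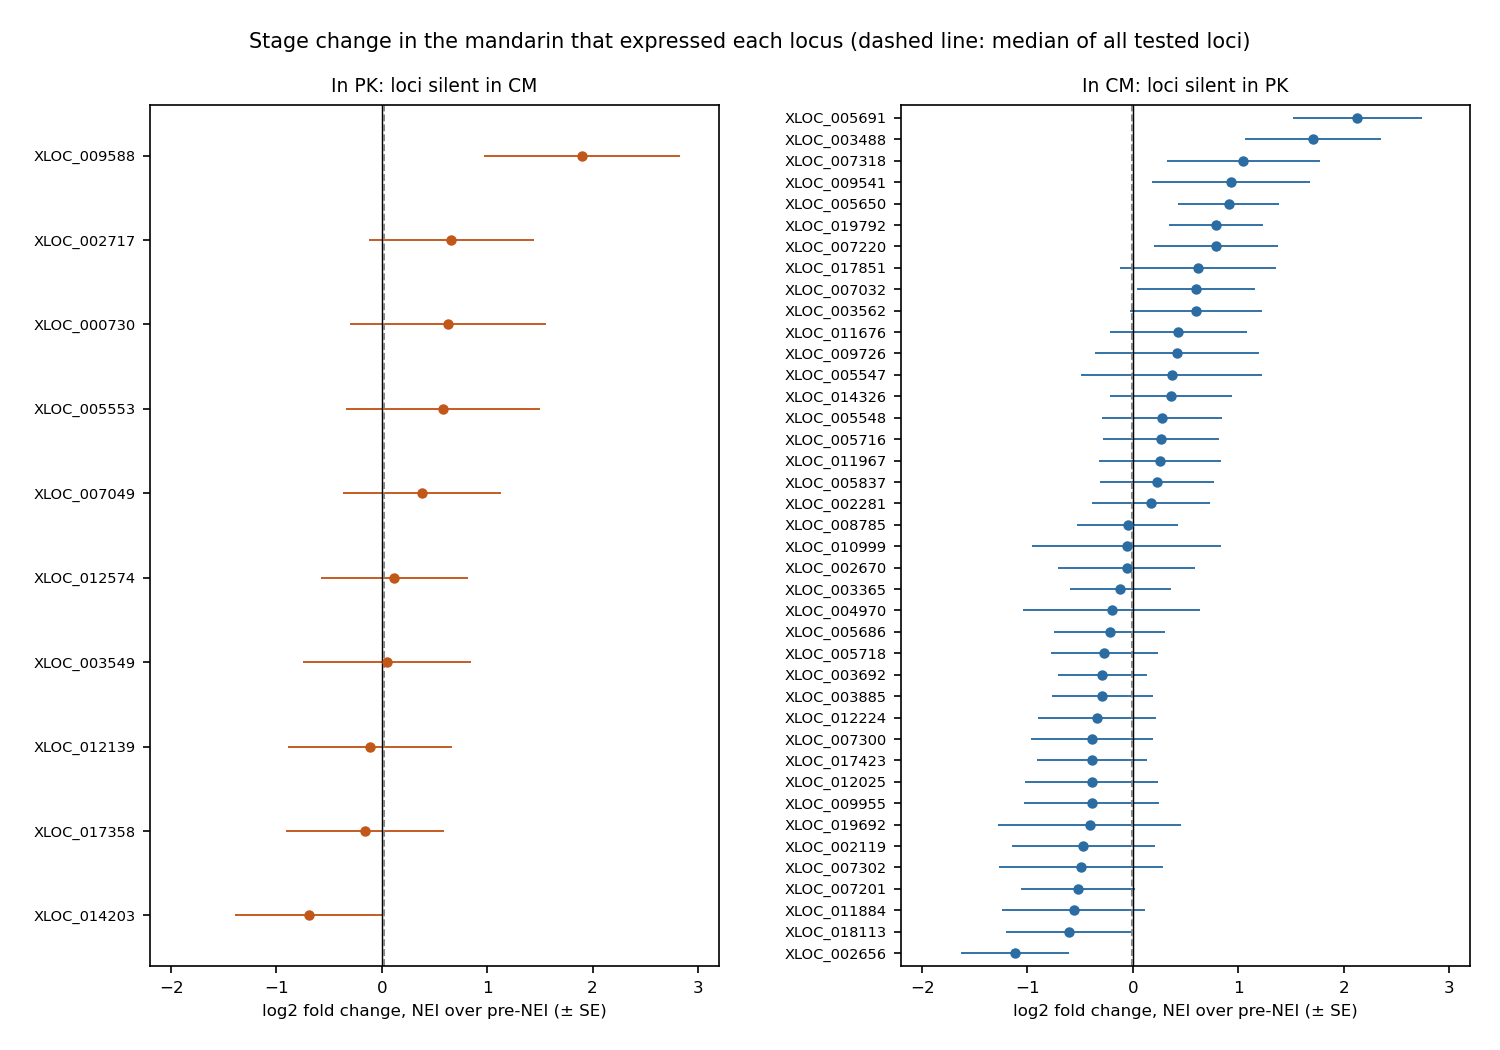
log2 fold change of NEI over pre-NEI (edgeR, ± SE, 2 libraries per stage) in PK for the loci silent in CM (left) and in CM for the loci silent in PK (right); the dashed line is the median of all tested loci. Most bars cross 0, and XLOC_005691 (2.13) and XLOC_003488 (1.71) lie highest in CM.

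The 50 loci were chosen on PK and CM alone, and some could also be looked up in the other cultivar pair. An annotation was at hand for 11 of the 50 loci, and it named a sweet orange gene with a locus in GF and PU for 10 of them. It comes from a list of genes made by the study from differences in both cultivar pairs, so these 10 were picked with GF and PU in view, and neither the counts of calls nor the p-values of single loci are independent evidence of a direction. GF and PU were aligned to the sweet orange genome, and levels are not compared between the tables. Of the 2 loci silent in CM, GF was called higher than PU for both at each stage, where 4.24% (pre-NEI) and 12.0% (NEI) of the 19943 tested loci were called higher. Of the 8 loci silent in PK, GF was called lower for 5 at pre-NEI and 6 at NEI, where 2.33% and 9.79% of all loci were called lower.

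The counterpart of XLOC_009588 (Cs7g27770) had 18.6 and 12.7 CPM at NEI and 1.39 and 1.81 CPM at pre-NEI in GF, against 0.0521 and 0.0802 CPM at NEI and 0 at pre-NEI in PU. GF was higher by 8.06 ± 0.71 at NEI and 7.96 ± 0.98 at pre-NEI on the log2 scale (SE; edgeR adjusted p = 0.00434 and 0.0129). Both NEI libraries lay above both pre-NEI libraries in GF, as in PK, and the stage contrast of GF was not tested here. The counterpart of XLOC_005553 (orange1.1t02190) had 4.5 and 3.24 CPM at NEI and 3.00 and 1.87 CPM at pre-NEI in GF, against 0.417 and 0 CPM at NEI and 0.054 and 0 CPM at pre-NEI in PU. Its log2 fold changes of 4.26 ± 1.11 and 6.05 ± 1.40 had edgeR adjusted p-values of 0.0335 and 0.0474. XLOC_012139 has no sweet orange gene in the list.

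Of the 8 counterparts of loci silent in PK, 3 were under 3 counts in all 4 GF libraries as well. That of XLOC_005650 (orange1.1t05899) had 0 counts in all 4 GF libraries, against 4.27 and 6.25 CPM at NEI and 5.78 and 5.49 CPM at pre-NEI in PU, at least 34.3-fold higher in PU. The counterpart of XLOC_019792 (orange1.1t04324) had 0.104 and 0 CPM at NEI and 0 and 0.0585 CPM at pre-NEI in GF, against 10.4 and 10.7 CPM at NEI and 8.96 and 8.45 CPM at pre-NEI in PU. The log2 fold change of GF over PU was -7.02 ± 0.93 at NEI and -7.55 ± 0.94 at pre-NEI (SE; edgeR adjusted p = 0.00685 and 0.00914). The third, the counterpart of XLOC_005691 (orange1.1t01190), stayed low in PU too (0.313 and 1.84 CPM at NEI, 0.270 and 0.338 CPM at pre-NEI) and did not pass the filter of the test.

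The other 5 counterparts held 3 or more counts in at least 1 GF library, and GF was called lower for 3 of them at pre-NEI and 4 at NEI. XLOC_008785 (orange1.1t03872, no annotation) had 18.7 and 26.3 CPM at NEI and 21.3 and 24.4 CPM at pre-NEI in GF, against 83.8 and 137 CPM at NEI and 80.4 and 118 CPM at pre-NEI in PU. The log2 fold changes were -2.02 ± 0.30 and -1.99 ± 0.30 (NEI and pre-NEI, SE; edgeR adjusted p = 0.00855 and 0.0149). XLOC_007201 (Cs5g12500) had 4.24 and 7.56 CPM at NEI and 7.28 and 12.3 CPM at pre-NEI in GF, against 36.9 and 56.2 CPM at NEI and 38.4 and 53.2 CPM at pre-NEI in PU, and was called at both stages. Both loci had 0 counts in PK, while their counterparts had up to 834 and 421 counts in a GF library.

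XLOC_002119 (Ciclev10013990m.g, scaffold 13, bases 32164 to 32766) is the only locus of the 50 for which the list gives a kind of protein, a putative ATP binding protein, with 0 counts in PK, against 2.46 and 3.65 CPM at NEI and 2.59 and 5.42 CPM at pre-NEI in CM. Its counterpart, a locus that carries orange1.1t04947 and orange1.1t04948, had 0.104 and 0.463 CPM at NEI and 0.535 and 0.585 CPM at pre-NEI in GF, against 3.02 and 6.81 CPM at NEI and 4.26 and 7.01 CPM at pre-NEI in PU. The log2 fold change was -3.89 ± 0.77 at NEI and -3.18 ± 0.70 at pre-NEI (SE; edgeR adjusted p = 0.0156 and 0.0415). The counterpart of XLOC_007318 (Cs5g23050) was called at NEI alone, with log2 fold changes of -1.81 ± 0.43 at NEI and -0.42 ± 0.42 at pre-NEI, and that of XLOC_005547 (Cs5g16580) at neither stage, with -1.20 ± 0.53 and -2.08 ± 0.54 (edgeR adjusted p = 0.131 and 0.065). At pre-NEI the counterpart of XLOC_005547 passed the other tests, with an adjusted p of 0.0364 when edgeR was fitted with the replicate block, 0.00441 in DESeq2 and 0.022 in the exact test of edgeR. The difference between stages was not tested.

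The counterpart counts may depend on single libraries. Against the 7 called at pre-NEI and the 8 called at NEI, fewer passed in most fits without a library of the same stage. Those fits leave 1 library in a group, and the calls over all GF and PU loci are not at hand for them. They cannot show whether the loss is particular to the counterparts.

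**Figure D4:**
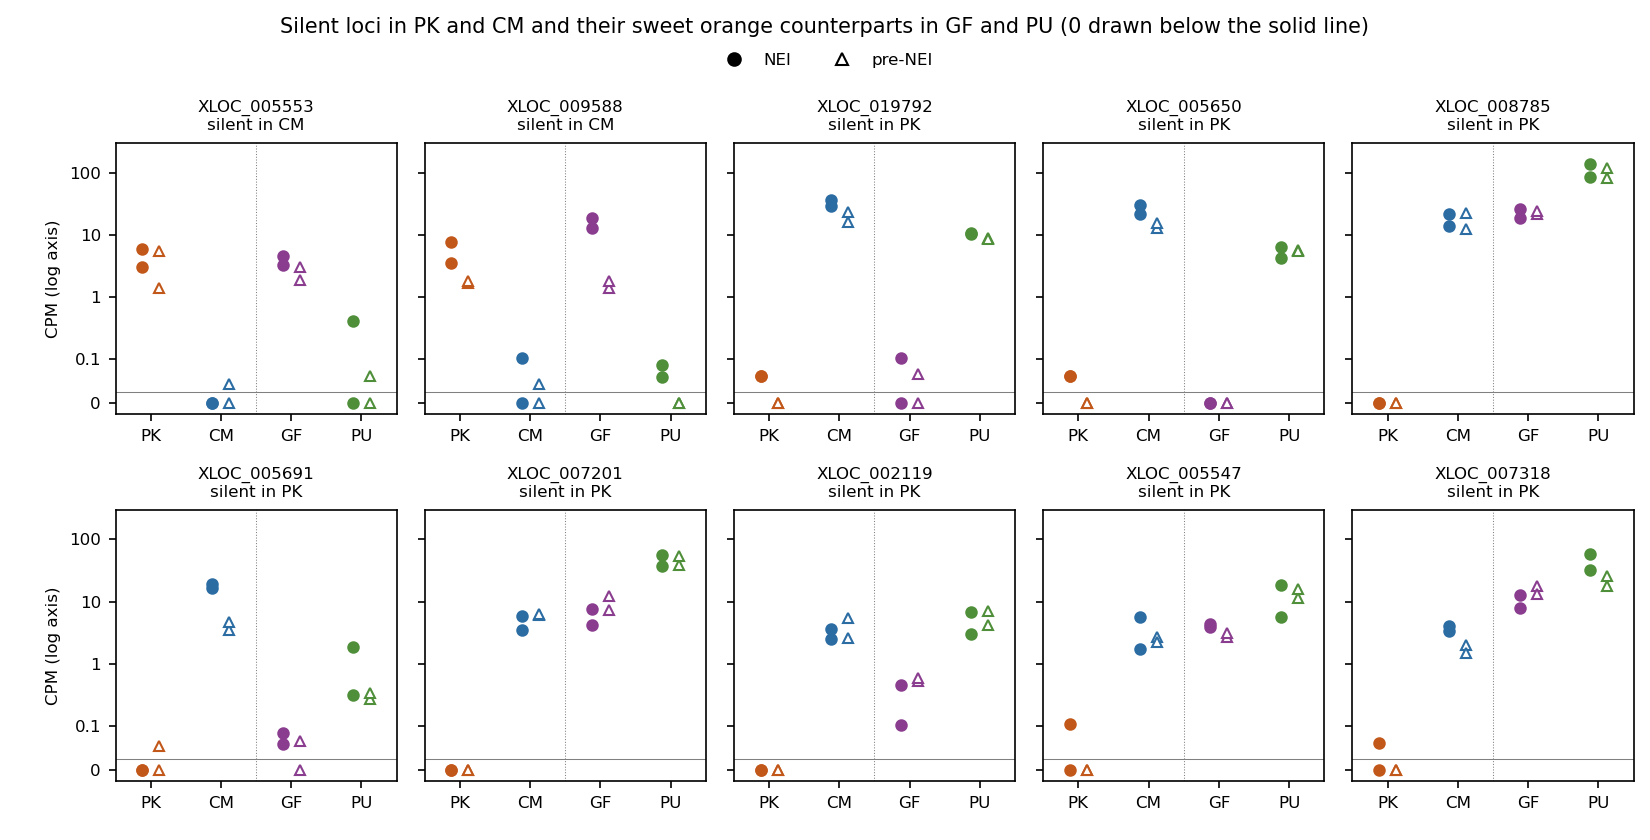
CPM on a log axis (0 drawn below the solid line) of the 10 silent loci with a listed sweet orange counterpart, in the PK and CM libraries, and of the counterpart in the GF and PU libraries; circles are NEI and triangles pre-NEI. XLOC_005650 has 0 counts in all 4 GF libraries, and XLOC_008785, with 0 counts in PK, has 18.7 to 26.3 CPM in GF.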

How the data were processed

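The deposited count of each assembled transcript in each library had no unit in the file headers and was read as counts from its whole numbers. The authors aligned reads with TopHat and Bowtie, allowing 2 mismatches, and assembled transcripts with Cufflinks; versions, read counter and strand setting are not given in the sources used here. The authors' deposited FPKM was a pooled value per transcript, cultivar and stage, and the transcript length and the GC percent were also deposited. All 3 were taken from the transcript that gave the count of the locus. Isoforms of a locus appear to repeat reads, as their near-equal counts show, so a locus took the count of its transcript with the largest total. PK/CM and GF/PU were fitted apart, each as 4 groups of 2 libraries, by the edgeR quasi-likelihood test with TMM (edgeR 4.0.16, R 4.3.3), after dropping loci that did not reach 1 CPM in 2 or more libraries. Calls needed a Benjamini-Hochberg adjusted p under 0.05 over all tested loci and a log2 fold change of 1 or more in either direction; the SE is the estimate over the root of its F statistic. DESeq2 1.42.0 and the edgeR exact test were alternatives, and the code was tested on simulated data. A fold against 0 used 3 counts per library; other ratios have exact 95% binomial intervals.

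The shifts between replicates 1 and 2 correlated across loci in all 6 pairs of PK/CM groups (0.333 to 0.496), so an alternative fit took replicate numbers as paired there. The main PK/CM fit left the replicates unpaired, and the pairing entered only through the fit with the replicate block. The replicates were harvests of 2 years, though no source gives the year of each number. In GF/PU the correlations ran from 0.0481 to 0.585, the numbers were not taken as paired, and a fit with the block was likewise only an alternative. The members and lists were chosen with earlier results of these data known. Named loci were, in each direction, the 10 with the highest mean CPM in the expressing mandarin, those in the study's common list, those with a stage change past the test, those within 20 kb of a locus of the other direction and those nearest the limits; others were added after their values were seen. No genome or protein sequence was used here, and most loci have no named function in the sources used.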

Additional observations from a re-analysis of the deposited data

How the results depend on the processing

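The number of loci silent in CM (10) was 5 with 0 counts required, 26 with under 10 counts allowed, 0 with at least 5 CPM, 16 with at least 0.5 CPM and 1 when transcripts were summed; the number silent in PK (40) was 18, 69, 15, 50 and 19. All 10 and all 40 remained under the wider limits. The 5 loci with 0 counts in CM had 0 counts there in every transcript. Those of the 5 that were lost on summing therefore failed the limit of 1 CPM and not the count limit. The cause of the drop on summing was otherwise not tested. Leaving out 1 library gave 10 to 12 and 40 to 49 loci. Calls of PK against CM over all loci were 675 at pre-NEI and 307 at NEI, where DESeq2 gave 2428 and 1085 and the edgeR exact test 1546 and 808. They were 409 and 203 with a minimum of 5 CPM, 2006 and 625 with the replicate block, 1353 and 0 from only the 4 libraries compared, and 2 to 763 and 2 to 137 without 1 library; the cause was not tested. The stage change in CM of loci silent in PK gave 1 call by DESeq2, against 0 otherwise, and that in PK of loci silent in CM gave 0 under all 15 alternatives. For most of these alternatives the share of all loci called between stages is not at hand. Counterparts called between GF and PU numbered 7 at pre-NEI and 8 at NEI, with 4 at pre-NEI from only the 4 libraries compared and 0 to 7 and 3 to 9 without 1 library. The settings for counterparts and for neighbours were chosen after seeing the data. Neighbours called lower in PK numbered 15 and 6, where DESeq2 gave 26 and 19 and the edgeR exact test 23 and 16. With the replicate block these were 24 and 14. The block moved the counts over all loci and of neighbours by over 1.5-fold, and not those of the stage change or of the counterparts.

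Depth limits the silent side: 3 counts were 0.12 to 0.168 CPM in PK and CM, so weaker expression in all libraries of a mandarin counted as silent. With 2 libraries a group and 4 residual degrees of freedom, the stage test made no call for any locus, and its result on these loci does not show that their stages were alike. One cultivar stood for each mandarin, and PK reads were placed on a clementine genome.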
